A study of Mus musculus with 11 samples.

Results

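The carbonic anhydrases, sodium pump beta subunits and aquaporins examined here are the 9 genes Car2, Car3, Car4, Car12, Car14, Atp1b1, Atp1b2, Aqp1 and Aqp4. They were found by gene symbol in the annotation of the array platform, and together they are read by 12 array features (probes) out of 23978, or 9 genes out of 15946. Car2, Car3 and Aqp1 have 2 features each and the other 6 genes have 1. A gene with several features is described by the one with the highest mean signal, and the other is given beside it.

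Choroid plexus (CP) RNA was hybridised to Illumina MouseRef-8 arrays as 11 pools, each made from 3 mice that were perfused with saline before dissection. All mice were female SJL mice of 6 to 8 weeks of age. The mice with experimental autoimmune encephalomyelitis (EAE), a model of multiple sclerosis, had received a proteolipid protein peptide in complete Freund's adjuvant together with pertussis toxin. Their CPs were collected at disease onset (Onset, 3 pools), in remission (Remission, 3 pools) and in relapse (Relapse, 2 pools). The control pools (PBS, 3 pools) came from mice given phosphate buffered saline in place of the peptide, with the same adjuvant and the same toxin, so that every group carried the adjuvant and the toxin. Control mice were killed along with the onset mice. In the comparisons of Remission and Relapse with PBS, disease phase and time after immunization therefore cannot be told apart. Values are log2 signals after quantile normalization, and a feature is called above background where its detection p is under 0.01. Pools are separate sets of mice, and the errors given are standard deviations (SD) between pools.

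The CP epithelium secretes most of the cerebrospinal fluid (CSF). Carbonic anhydrases convert carbon dioxide and water into protons and bicarbonate and so feed the ion exchangers of the epithelium. The sodium pump, which in the CP lies in the apical membrane facing the CSF, exports sodium with an alpha subunit that carries the catalytic activity and a beta subunit needed for folding and delivery to the membrane. Aquaporins are the channels through which water follows.

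The tissue label was checked against marker genes. Of the CP epithelium list (Ttr, Folr1, Kl, Clic6, Kcne2, Otx2, Sostdc1 and Cldn2), all 8 measured markers were above background in all 11 pools and 0 were called different from PBS in any phase. Their summed signal lay at 425840 to 440132 in Onset, 426903 to 438803 in Remission, 436523 to 444167 in Relapse and 421826 to 440915 in PBS. Of the 8, Ttr, Folr1, Kl, Clic6 and Sostdc1 had mean log2 signals of 16.06 to 16.13, near the highest that the arrays gave, and they make up most of the sum. Kcne2, at a mean of 12.28, was 0.68 lower in Onset than in PBS (limma adjusted p = 0.0539). The arrays had 8687 to 10221 features above background. The pools Onset 3 and Remission 3 were the most alike: none of the 10012 features they both detected differed by more than 1 log2 unit, against 7 to 266 features in the other 54 pairs. Leaving both pools out changed no call of the 9 genes.

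Among the 9 genes, 1 was called in the onset phase and none in remission or relapse. Car3 was the gene called, and it was lower in Onset than in PBS. Calls are those of limma at an adjusted p under 0.05, adjusted over all 23978 features. In that comparison 1.21% of all features were called, 254 higher and 37 lower, and 3 of the 9 genes and 9.72% of all features had an unadjusted p under 0.05. In Remission against PBS 0 of the 9 genes were called, where 0.204% of all features were, and 2 had an unadjusted p under 0.05, as did 7.07% of all features. In Relapse against PBS 0 of the 9 were called, where 0.0125% of all features were, and again 2 had an unadjusted p under 0.05, as did 5.68% of all features. Most of the 9 genes therefore differed from PBS by amounts that limma's test did not separate from the spread between pools. The median log2 fold change of the 9 genes was 0.01 in Onset, -0.02 in Remission and 0.03 in Relapse, beside -0.02, -0.01 and -0.01 over all features. The median size of the change, without its sign, was 0.12, 0.13 and 0.16 for the 9 genes and 0.08, 0.07 and 0.08 over all features.

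**Figure D1:**
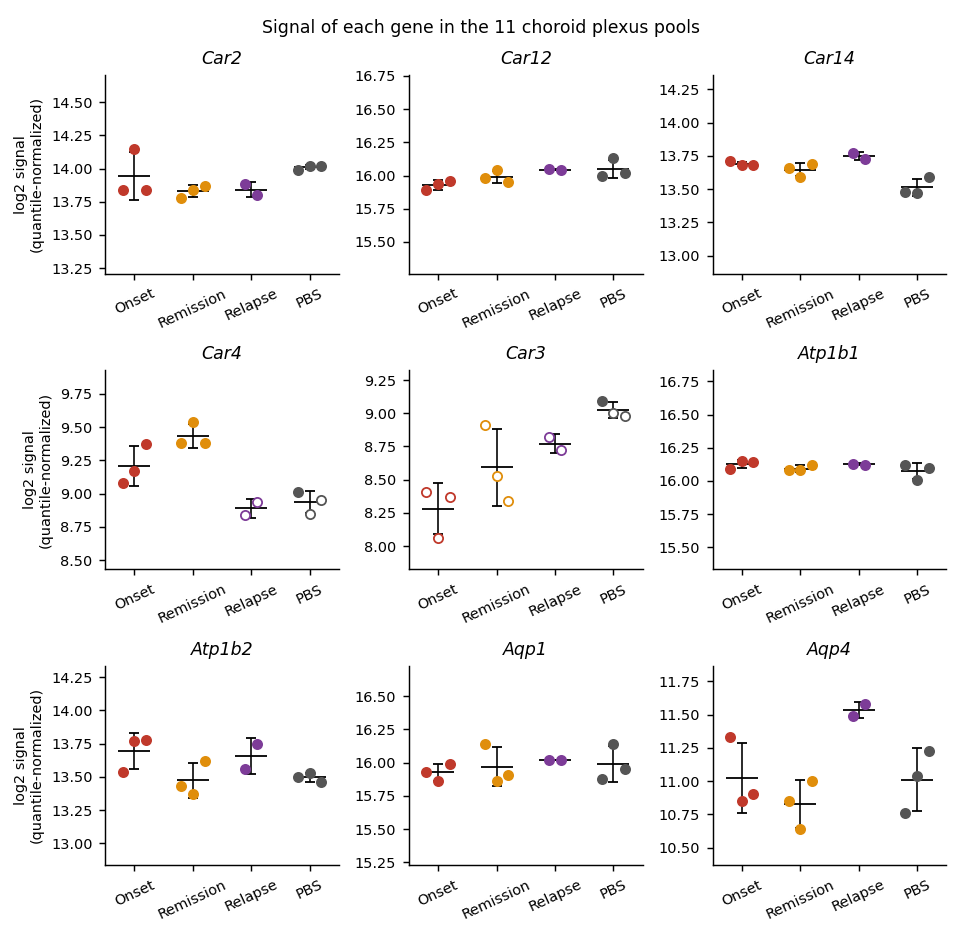
Log2 quantile-normalized signal of each gene (y axis) in the 11 CP pools by group (x axis). Points are pools, filled where the feature was above background and open where it was not, horizontal bars are group means and whiskers 1 SD, and every panel spans the same number of log2 units; Car3 and Car4 have open points, and Car3 has a filled point in 1 PBS pool only.

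Car2 is the cytosolic, high-activity carbonic anhydrase that is abundant in the CP epithelium. Its signal was 13.84, 14.15 and 13.84 in the Onset pools, 13.78, 13.84 and 13.87 in the Remission pools, 13.88 and 13.80 in the Relapse pools, and 13.99, 14.02 and 14.02 in the PBS pools. All Remission and Relapse pools lay below all PBS pools, whereas Onset 2 lay above them. The log2 fold change was -0.07 in Onset (SE 0.09, 95% interval -0.26 to 0.13, limma adjusted p = 0.904), -0.18 in Remission (-0.37 to 0.01, adjusted p = 0.744) and -0.17 in Relapse (-0.39 to 0.04, adjusted p = 0.931). These intervals reach down to a decrease of 22.7% in Remission and of 23.6% in Relapse. The second Car2 feature was dimmer, varied more between pools of a group (residual SD 0.40, against 0.10) and did not follow the first over the 11 pools (Pearson r = -0.11, Spearman rho = -0.21). Its log2 fold changes were 0.03 in Onset, 0.08 in Remission and -0.41 in Relapse, none of them called.

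Car3 is a cytosolic isozyme of low activity, known best from skeletal muscle, fat and liver. In the CP its signal was at the edge of detection. It was 8.41, 8.06 and 8.37 in the Onset pools, 8.91, 8.53 and 8.34 in the Remission pools, 8.82 and 8.72 in the Relapse pools, and 9.09, 9 and 8.98 in the PBS pools. Every EAE pool lay below every PBS pool, yet the feature was above background in 1 of the 11 pools, PBS 1. The means were 8.28 ± 0.19 in Onset and 9.02 ± 0.06 in PBS (SD, n = 3 each). The log2 fold change in Onset was -0.74 (SE 0.13, 95% interval -1.03 to -0.45, limma adjusted p = 0.0179). No Onset pool was above background. With the detection limit of each Onset array in place of its signal, the PBS mean was 1.13-fold higher than Onset. PBS 2 and PBS 3 were also not above background, so this fold is not a firm lower bound. A fold of this kind sets the mean of the brighter group against the detection limit of each array of the dimmer group. Where the feature's own signal was higher than the limit, that signal was used. The limit ran from 8.74 to 9.05 over the EAE arrays. In Remission the measured log2 fold change was -0.43 (-0.71 to -0.14, adjusted p = 0.38), and the fold by detection limits was 1.10. In Relapse they were -0.25 (-0.58 to 0.07, adjusted p = 0.931) and 1.06. Neither difference was called, and neither fold is a firm bound.

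The Car3 call at onset depended on single pools. It was lost without Onset 2 (limma adjusted p = 0.0591), without Onset 3 (0.057), without PBS 1 (0.0982) and without PBS 2 (0.0691), and it was kept without Onset 1 or PBS 3. The log2 fold change stayed between -0.80 and -0.63 over these 6 omissions. With background correction by neqc the log2 fold change was -1.26, and over all settings tried the adjusted p ran from 0.000619 to 0.0982. A rule that keeps only features above background in at least 2 pools leaves Car3 out of the test. The second Car3 feature was above background in no pool. Its log2 fold changes were -0.21 in Onset (adjusted p = 0.601), -0.22 in Remission (0.762) and -0.08 in Relapse. Most of the skeletal muscle and fat markers examined were near the floor of the arrays, and no liver markers were examined. Of 7 skeletal muscle markers, 6 were above background in no pool, Acta1, Ckm and Myh4 among them, 0 were called in any phase, and the summed signal of the 7 was 1825 to 1856 in Onset, 1800 to 1886 in Remission, 1906 to 1930 in Relapse and 1877 to 2125 in PBS. Mylpf, a myosin light chain gene of fast muscle, was the 1 muscle marker above background, in 3 of the 11 pools. It had the direction of Car3, with log2 fold changes of -0.23 in Onset (limma adjusted p = 0.38), -0.25 in Remission (0.491) and -0.10 in Relapse (0.966), and its unadjusted p was under 0.05 in Onset and Remission. Of 5 adipocyte markers, Adipoq included, none was above background in any pool. Their summed signal was 1250 to 1267 in Onset, 1266 to 1343 in Remission, 1269 to 1311 in Relapse and 1291 to 1329 in PBS. The part of these tissues in the Car3 difference was not tested.

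Car4 is held on the outer face of the membrane by a lipid anchor and is known from capillary endothelium, that of the brain included. Its signal was 9.08, 9.17 and 9.37 in the Onset pools, 9.38, 9.54 and 9.38 in the Remission pools, 8.84 and 8.94 in the Relapse pools, and 9.01, 8.85 and 8.95 in the PBS pools. It was above background in all Onset and Remission pools, in 0 of 2 Relapse pools and in 1 of 3 PBS pools. All Onset and Remission pools lay above all PBS pools, and the Relapse pools lay within 0.10 of the PBS mean. The difference was 0.49 on the log2 scale in Remission (SE 0.09, 95% interval 0.30 to 0.69, a fold of 1.41), and with a limma adjusted p of 0.0544 it did not pass the threshold. In Onset it was 0.27 (SE 0.09, 0.08 to 0.47, adjusted p = 0.258) and in Relapse -0.05 (-0.27 to 0.17, adjusted p = 0.981). Fitted on the log2 values normalized by the authors, the Remission difference was 0.50 with an adjusted p of 0.0499, and over all settings its adjusted p ran from 0.0151 to 0.271. With neqc background correction it was 0.84, and the Onset difference 0.48.

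Between the phases, Car4 was 0.54 log2 units lower in Relapse than in Remission (95% interval -0.76 to -0.32, limma adjusted p = 0.146) and at least 1.41-fold lower when the detection limit is used for the Relapse pools. Against Onset it was 0.32 lower in Relapse (-0.54 to -0.10, adjusted p = 0.26). Neither difference passed the threshold. In Remission against Onset it was 0.22 higher (0.03 to 0.42, adjusted p = 1).

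Over the 11 pools, the genes whose signal followed Car4 most closely were Cdh5 (Pearson r = 0.941, Spearman rho = 0.945), Alpl (0.931 and 0.909) and Emcn (0.926 and 0.927), chosen as the highest of 7601 genes above background in every pool. Cdh5 encodes VE-cadherin, the adhesion molecule of endothelial junctions, Emcn encodes the endothelial sialomucin endomucin, and Alpl encodes tissue-nonspecific alkaline phosphatase. Within groups, after removal of the group means, r was 0.736 for Cdh5, 0.524 for Alpl and 0.762 for Emcn. Cdh5 measured 9.77, 9.83 and 9.86 in the Onset pools, 9.97, 10.10 and 9.94 in the Remission pools, 9.51 and 9.61 in the Relapse pools, and 9.62, 9.31 and 9.43 in the PBS pools. Thus its 6 Onset and Remission pools also lay above all Relapse and PBS pools.

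**Figure D2:**
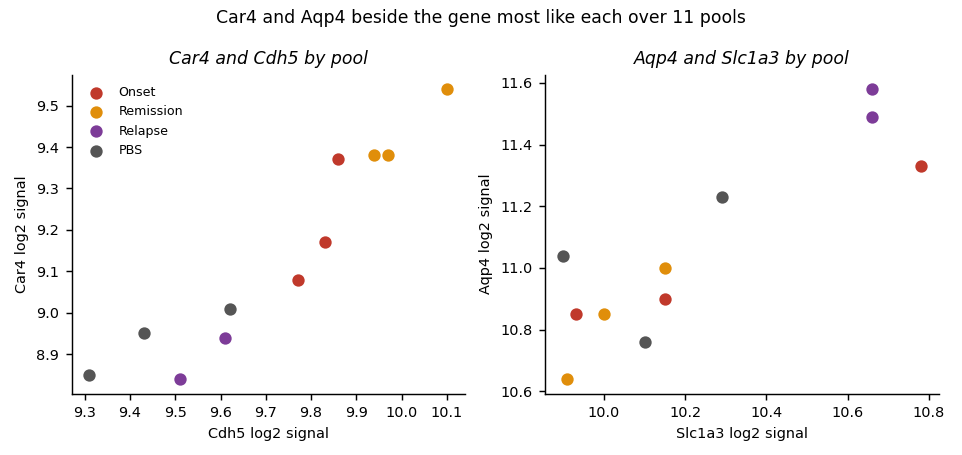
Log2 signal of Car4 against Cdh5 (left) and of Aqp4 against Slc1a3 (right), 1 point per pool, coloured by group. For Car4 the 6 Onset and Remission pools sit at the upper right, while for Aqp4 the 2 Relapse pools and 1 Onset pool sit there.

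Several markers of the endothelium were also higher in Onset and Remission than in PBS. Cdh5 and Emcn, chosen above as followers of Car4, belong to this list. Of 7 measured markers, Flt1, Tek and Emcn were called higher in Onset, and Cdh5, Flt1, Tek and Emcn were called higher in Remission, by limma. In Relapse 0 were called, and 1 of the 7 had an unadjusted p under 0.05, in the lower direction. Kdr, which encodes the main receptor for vascular endothelial growth factor, was above background in no pool. The log2 fold change of Flt1, a receptor for the same ligand, was 1.02 in Onset (adjusted p = 0.00351) and 1.02 in Remission (adjusted p = 0.0147). The summed signal of the 7 markers was 18376 to 22536 in Onset, 18638 to 23757 in Remission, 11224 to 12178 in Relapse and 11260 to 13655 in PBS. This order was not particular to the endothelium. The summed signal of 8 leukocyte markers was 31259 to 48835 in Onset and 30693 to 31542 in Remission. It was 17917 to 22481 in Relapse and 9923 to 17638 in PBS. The part of the endothelium or of leukocytes in the Car4 pattern was not tested, and Car4 itself was not called. In pooled tissue, a change in the number of cells of a type and a change in RNA per cell cannot be told apart.

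Car12 and Car14 are transmembrane carbonic anhydrases whose catalytic domain faces outward. Car12 was among the brightest features of the array. It measured 15.89, 15.94 and 15.96 in the Onset pools, 15.98, 16.04 and 15.95 in the Remission pools, 16.05 and 16.04 in the Relapse pools, and 16, 16.13 and 16.02 in the PBS pools. The Onset pools lay just below the PBS pools, and the other phases overlapped them. Against PBS the log2 fold change of Car12 was -0.12 in Onset (95% interval -0.27 to 0.03, limma adjusted p = 0.666), -0.06 in Remission (-0.21 to 0.09, adjusted p = 0.936) and -0.01 in Relapse (-0.18 to 0.16, adjusted p = 0.997). The Relapse value changed sign under median scaling and under array weights.

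Car14 measured 13.71, 13.68 and 13.68 in the Onset pools, 13.66, 13.59 and 13.69 in the Remission pools, 13.77 and 13.73 in the Relapse pools, and 13.48, 13.47 and 13.59 in the PBS pools. It was the 1 gene of the 9 that lay at or above the highest PBS pool in every EAE pool, although Remission 2 and PBS 3 were equal to 2 decimals. In log2 fold change Car14 differed from PBS by 0.17 in Onset (SE 0.07, 95% interval 0.02 to 0.32, limma adjusted p = 0.406), 0.13 in Remission (-0.02 to 0.29, adjusted p = 0.771) and 0.23 in Relapse (SE 0.08, 0.07 to 0.40, adjusted p = 0.777). Not one of these differences was called, and the upper limit of the largest interval was a fold of 1.32. The closest followers of Car14 were Cfap70 (r = 0.885, rho = 0.791), Thy1 (0.875 and 0.782) and Dcn (0.860 and 0.818). Within groups, after removal of the group means, r was lower, at 0.547 for Cfap70, 0.339 for Thy1 and 0.54 for Dcn. Dcn, which encodes the matrix proteoglycan decorin, belongs to the stroma list, of which 0 of 7 measured markers were called in any phase. The summed signal of that list was 33684 to 38196 in Onset, 33131 to 34806 in Remission, 31942 to 33997 in Relapse and 24312 to 28824 in PBS. Dcn itself, at a mean log2 signal of 14.58, makes up most of this sum. Over the 7 markers the log2 fold change ran from -0.39 to 0.47 in Onset (median 0.10) and from 0.08 to 0.43 in Remission (median 0.33). In Relapse it ran from -0.28 to 0.54 (median 0.13). The part of the stroma in the Car14 values was not tested.

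Atp1b1 encodes the most widespread beta subunit of the sodium pump, and Atp1b2 the subunit first described as an adhesion molecule on glia. Atp1b1 measured 16.09, 16.15 and 16.14 in the Onset pools, 16.08, 16.08 and 16.12 in the Remission pools, 16.13 and 16.12 in the Relapse pools, and 16.12, 16.01 and 16.10 in the PBS pools. The groups overlapped in every phase. For Atp1b1 the log2 fold change was 0.05 in Onset (95% interval -0.10 to 0.20, limma adjusted p = 0.904), 0.02 in Remission (-0.13 to 0.17, adjusted p = 0.979) and 0.05 in Relapse (-0.11 to 0.21, adjusted p = 0.979). The Onset and Remission values changed sign under median scaling.

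Atp1b2 measured 13.54, 13.77 and 13.78 in the Onset pools, 13.43, 13.37 and 13.62 in the Remission pools, 13.56 and 13.75 in the Relapse pools, and 13.50, 13.53 and 13.46 in the PBS pools. Onset and Relapse pools lay above all PBS pools, by 0.01 at the nearest in Onset, and Remission pools lay on both sides of them. Relative to PBS, Atp1b2 had a log2 fold change of 0.20 in Onset (SE 0.09, 95% interval 0.00 to 0.40, limma adjusted p = 0.531), -0.02 in Remission (-0.22 to 0.18, adjusted p = 0.985) and 0.16 in Relapse (-0.07 to 0.39, adjusted p = 0.937). Remission was 0.22 lower than Onset (-0.42 to -0.02, adjusted p = 1), a difference that was not called.

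Aqp1 is the water channel of the apical membrane of the CP epithelium. Its signal was 15.93, 15.86 and 15.99 in the Onset pools, 16.14, 15.86 and 15.91 in the Remission pools, 16.02 and 16.02 in the Relapse pools, and 15.88, 16.14 and 15.95 in the PBS pools. All 3 EAE groups overlapped the range of the PBS pools. Log2 fold changes of Aqp1 were -0.06 in Onset (95% interval -0.27 to 0.14, limma adjusted p = 0.913), -0.02 in Remission (-0.22 to 0.18, adjusted p = 0.986) and 0.03 in Relapse (-0.19 to 0.26, adjusted p = 0.985). The Onset and Remission values changed sign under array weights. The second Aqp1 feature was dimmer and gave -0.05, -0.04 and 0.13 in the same 3 comparisons, none of them called. Over the 11 pools the features correlated weakly (r = 0.26, rho = 0.23).

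Aqp4 is the water channel of astrocyte endfeet and of ependymal cells, and it is the gene of the 9 with the largest difference in relapse. Its signal was 11.33, 10.85 and 10.90 in the Onset pools, 10.85, 10.64 and 11 in the Remission pools, 11.49 and 11.58 in the Relapse pools, and 10.76, 11.04 and 11.23 in the PBS pools. Both Relapse pools were above the other 9 pools, while Onset and Remission overlapped PBS. The mean was 11.54 ± 0.06 in Relapse (SD, n = 2) and 11.01 ± 0.23 in PBS (SD, n = 3). The log2 fold change in Relapse was 0.53 (SE 0.16, 95% interval 0.18 to 0.88, a fold of 1.44), with a limma adjusted p of 0.735, so it did not pass the threshold. It was 0.01 in Onset (-0.30 to 0.33, adjusted p = 0.994) and -0.18 in Remission (-0.50 to 0.13, adjusted p = 0.893). Against the other phases, Relapse was 0.51 higher than Onset (0.16 to 0.86, adjusted p = 0.268) and 0.71 higher than Remission (0.36 to 1.06, adjusted p = 0.332).

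The genes that followed Aqp4 most closely were Slc1a3 (r = 0.876, rho = 0.752), Padi2 (0.834 and 0.709) and Reln (0.831 and 0.664). Slc1a3 encodes the glutamate transporter GLAST of astrocytes and radial glia, Padi2 an arginine deiminase and Reln the secreted protein reelin. Slc1a3 measured 10.78, 9.93 and 10.15 in the Onset pools, 10.00, 9.91 and 10.15 in the Remission pools, 10.66 and 10.66 in the Relapse pools, and 10.10, 9.90 and 10.29 in the PBS pools. Its highest pool was Onset 1, which was also the highest Onset pool for Aqp4. Slc1a3 itself was 0.56 higher in Relapse than in PBS (limma adjusted p = 0.824).

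Markers of cells that could come with the CP gave no call in Relapse, and 3 each of the astrocyte, oligodendrocyte and neuronal lists, but 0 of the ependymal list, were higher at an unadjusted p under 0.05. Of 8 astrocyte markers, 0 were called in any phase. In Relapse 3 had an unadjusted p under 0.05 by limma, all higher. In Onset 2 did, also higher, and in Remission 0 did. Gfap, Slc1a2, Aldoc and Agt, which include the defining markers, were above background in no pool. The summed signal of the 8 was 13046 to 15322 in Onset, 11456 to 14243 in Remission, 14733 to 15889 in Relapse and 10293 to 13575 in PBS. Of 7 oligodendrocyte markers 0 were called in any phase and 3 were higher in Relapse at an unadjusted p under 0.05. Mog, Ermn and Ugt8a were above background in no pool. Their summed signal was 11055 to 17969 in Onset, 13606 to 18449 in Remission, 20056 to 21238 in Relapse and 8529 to 16368 in PBS. Mbp, the myelin basic protein gene, measured 12.67, 11.59 and 13.04 in the Onset pools, 12.45, 11.96 and 13.06 in the Remission pools, 12.94 and 13.25 in the Relapse pools, and 11.17, 10.92 and 12.67 in the PBS pools. Of 5 ependymal markers 0 were called in any phase, 0 had an unadjusted p under 0.05 in Relapse, and their summed signal was 46958 to 51433 in Onset, 43152 to 49337 in Remission, 45609 to 50263 in Relapse and 40218 to 49843 in PBS. Of 6 neuronal markers 0 were called, 3 were above background in no pool, and 3 were higher in Relapse at an unadjusted p under 0.05. Their summed signal was 2598 to 4110 in Onset, 2909 to 4048 in Remission, 3788 to 4520 in Relapse and 2864 to 3449 in PBS. The part of adjoining brain tissue in the Aqp4 values was not tested.

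**Figure D3:**
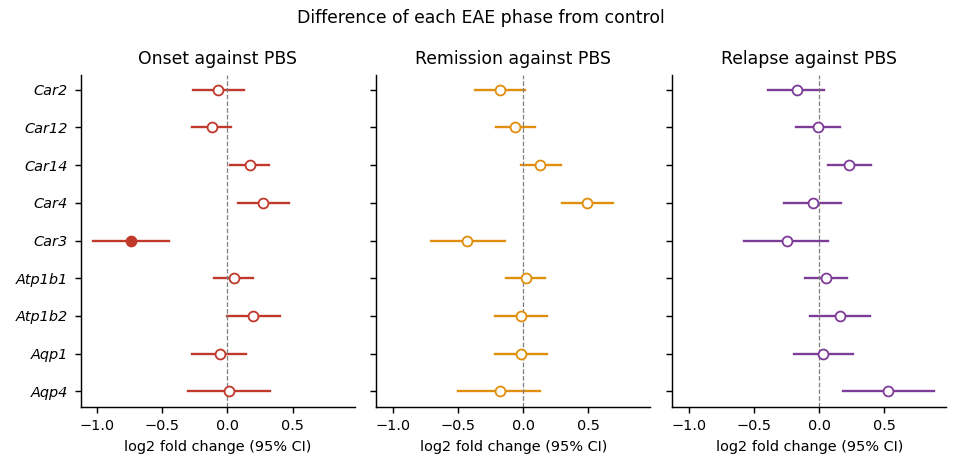
Log2 fold change of each gene (x axis) in Onset, Remission and Relapse against PBS, as points with 95% intervals from limma. The filled point is the 1 called difference, Car3 in Onset at -0.74, and the interval also lies apart from 0 for Car4 and Car14 in Onset, Car3 and Car4 in Remission, and Car14 and Aqp4 in Relapse.

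Counted by overlap of pools alone, 5 of the 9 genes had Onset pools that all lay beyond the PBS pools (Car3, Car4, Car12, Car14 and Atp1b2), where 15.2% of all features did. In Remission there were 4 (Car2, Car3, Car4 and Car14), against 12% of all features, and in Relapse 5 (Car2, Car3, Car14, Atp1b2 and Aqp4), against 20.2%. Car3 and Car14 appear in all 3 comparisons, which share the same PBS pools. These counts are descriptions, since the genes were chosen with earlier results of these data known. Directly between phases, 0 of the 9 genes were called in Remission against Onset, where 0% of all features were called and 983 had an unadjusted p under 0.05, 3 of the 9 genes among them. In Relapse against Onset 0 of the 9 were called, where 0.292% of all features were, and in Relapse against Remission 0 were called, where 0.0292% of all features were. An unadjusted p under 0.05 was found for 3 of the 9 genes and 9.23% of all features in Relapse against Onset, and for 2 and 5.51% in Relapse against Remission.

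The brightest genes lay near the highest signals of these arrays. Before normalization, the signal of Atp1b1 was 62815 to 72550, that of Car12 54650 to 72219 and that of Aqp1 50787 to 72462, while the highest signal of any feature on an array was 72276 to 73229. In Onset 2 the Atp1b1 feature was the highest signal of its array. The residual SD between pools of a group was 0.04 for Atp1b1, 0.05 for Car12 and 0.11 for Aqp1. Over all features with a mean log2 signal of 16 or more it had a median of 0.049 (61 features), against 0.105 for means of 15 to 16 (187 features) and 0.105 for means of 13 to 15 (1150 features). The part of this upper end in the small differences of Car12, Atp1b1 and Aqp1 was not tested. Of the other genes, Car14 had a residual SD of 0.05 and Aqp4 of 0.21.

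**Figure D4:**
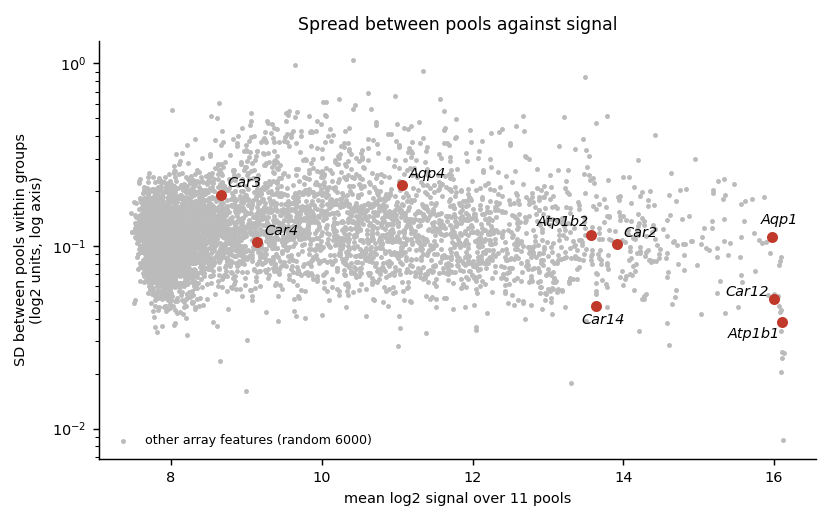
SD between pools within groups (y axis, log scale) against mean log2 signal over the 11 pools (x axis) for the 9 genes in red and a random set of other array features in grey. Spread falls off at the upper end of the signal range, where Car12 and Atp1b1 lie.

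The remaining carbonic anhydrases were mostly dim. Of 10 measured, Car1, Car5a, Car6, Car7, Car8 and Car9 were above background in no pool, Car11, Car13 and Car15 in all 11, and Car5b in some. None was called in any phase by limma. Car11, a relative without catalytic activity, was 0.37 higher in Relapse on the log2 scale (95% interval 0.17 to 0.57, adjusted p = 0.491). Car15 was 0.34 lower in Remission (-0.63 to -0.05, adjusted p = 0.591). Car13, a cytosolic isozyme, stayed within -0.03 and 0.12 of PBS in the 3 phases. In the chromosome order of RefSeq, Car13, Car1, Car3 and Car2 follow one another on chromosome 3, and of the 4 only Car3 was called, in Onset.

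Among other sodium pump subunits and FXYD proteins, small membrane proteins that tune the pump, 9 were measured and 0 were called in any phase. Atp1b3, the third beta subunit gene, measured 15.15 ± 0.03 in Onset and 15.42 ± 0.02 in PBS (SD, n = 3 each), a log2 fold change of -0.28 (95% interval -0.45 to -0.10, limma adjusted p = 0.177). Fxyd5 was 0.46 higher in Onset (adjusted p = 0.118), 0.48 higher in Remission (0.217) and 0.34 higher in Relapse (0.842). Fxyd6 was 0.50 higher in Relapse (adjusted p = 0.58). Fxyd2, the regulator known from kidney, was above background in no pool.

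Of the 10 other aquaporins, Aqp11 was the 1 above background, in all 11 pools, and 0 of the 10 were called in any phase. Aqp11, a channel of intracellular membranes, differed from PBS by -0.02 in Onset, -0.03 in Remission and 0.13 in Relapse. Aqp9 had the smallest p of the list, with a difference of 0.25 in Remission (limma adjusted p = 0.634), but was above background in no pool.

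The solute carriers and channels of CSF secretion gave 0 calls among 12 measured genes. Against PBS, the largest difference of the list was that of Kcne2, a potassium channel beta subunit of the CP epithelium. Kcne2 measured 11.92, 11.69 and 12.05 in the Onset pools, 12.52, 12.33 and 11.92 in the Remission pools, 12.41 and 12.53 in the Relapse pools, and 12.57, 12.80 and 12.34 in the PBS pools. All Onset pools lay below all PBS pools. Its log2 fold change in Onset was -0.68 (SE 0.15, 95% interval -1.02 to -0.35, limma adjusted p = 0.0539), just outside the threshold. Trpv4, a calcium-permeable channel that responds to osmotic stimuli, measured 12.98, 12.93 and 13.15 in the Onset pools, 13.65, 13.60 and 13.17 in the Remission pools, 13.77 and 13.93 in the Relapse pools, and 13.52, 13.93 and 13.37 in the PBS pools. All Onset pools of Trpv4 lay below all other pools (log2 fold change -0.59, 95% interval -0.92 to -0.26, adjusted p = 0.101). In Relapse against Onset, Trpv4 was 0.83 higher (0.47 to 1.20, adjusted p = 0.0703), which was not called. Slc12a2, the sodium, potassium and chloride cotransporter NKCC1, had a log2 fold change of 0.17 in Onset, 0.12 in Remission and 0.09 in Relapse. Slc4a2, the anion exchanger that takes up chloride for bicarbonate, had -0.09, -0.04 and -0.04. Mean log2 signals of Slc12a2 and Slc4a2 were 15.91 and 15.97, near the highest signals of these arrays. The part of this upper end in their small differences was not tested. Of the WNK and SPAK kinases, which phosphorylate such cotransporters, 5 were measured and 0 were called. Oxsr1 had the smallest p, with -0.25 in Onset (adjusted p = 0.235).

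Among markers of blood-borne cells, several of the leukocyte list also differed between groups. Of 8 leukocyte markers, 5 were called higher in Onset, 2 in Remission and 0 in Relapse by limma, with a summed signal of 31259 to 48835 in Onset, 30693 to 31542 in Remission, 17917 to 22481 in Relapse and 9923 to 17638 in PBS. Of 4 erythroid markers 0 were called, and their summed signal was 3444 to 7819 in Onset, 3759 to 9239 in Remission, 2697 to 3473 in Relapse and 3792 to 17704 in PBS. Car2 is also known from red blood cells and Car1 is their most abundant isozyme, and Car1 was above background in no pool. The part of these cells in the values of the 9 genes was not tested.

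For the other genes the closest followers over the 11 pools were Ppfibp2, Rilpl2 and Ap2s1 for Car2 (r 0.898, 0.886 and 0.871), and Rab6a, Snph and Pik3r2 for Car12 (0.956, 0.939 and 0.926). They were Phf7, Eif4h and Extl3 for Atp1b1 (0.919, 0.913 and 0.908), Dclk2, Tob2 and Cdkn1a for Atp1b2 (0.862, 0.855 and 0.849), and Plcxd3, Rbm12 and Nol11 for Aqp1 (0.903, 0.901 and 0.899). No likeness was computed for Car3, which was above background in 1 pool. The highest of 7601 correlations over 11 pools is large by selection, and all features share the same arrays.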

How the data were processed

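CP RNA of 11 pools of 3 mice was hybridised to Illumina MouseRef-8 arrays. From BeadStudio, the authors deposited linear signal intensities without normalization. Beside each intensity the deposited table holds a detection p-value, set against negative control beads. A further table deposited by the authors holds log2 values, quantile-normalized in R, which differ from those computed here by at most 0.0888. Background correction was not given in the sources used here. Of 23983 probes, 5 repeat the values of another and were left out.

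In R 4.3.3 with limma 3.58.1, log2 signals were quantile-normalized without background correction or filter. Means of the 4 groups were fitted and 6 contrasts tested (two-sided), and p-values were adjusted by Benjamini-Hochberg over the 23978 probes of a contrast, at 0.05. The moderated test had 5.53 prior and 7 residual degrees of freedom, and it was tested on simulated data. Symbols came from the platform table: 20917 probes have 1 gene, 1 has several and 3060 have none. Arrays give no counts, so the number of pools limits the precision. The members, the gene lists and the marker lists were chosen with earlier results of these data known. Named were all 9 genes with all their probes, list genes called against PBS or with the smallest p (up to 4 a list, not all of them printed), and for each gene above background in at least 6 pools the 3 genes with the highest r.

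Replicate numbers were checked as pairs. Deviations of same-numbered pools from their group means correlated at 0.46, 0.33 and 0.26 between Remission and Onset, which met the rule used (each above 0.1). In the other comparisons they correlated at -0.59 to 0.47 and did not meet it. Of the 11 pools, only 3 were closest to a pool of their own number among the pools of other groups. No label used here pairs the pools, so the rule alone does not establish pairs. Alternatives were neqc (offset 16), the authors' values, median scaling, a detection filter (at least 2 pools), 2-group fits, a replicate block, array weights and omission of pools.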

Additional observations from a re-analysis of the deposited data

Results flagged for a closer look

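For Car4, all Relapse pools lay at or below the PBS mean (-0.10 and 0.00 from it) while all Onset pools lay above it (0.14, 0.24 and 0.43), a Relapse minus Onset difference of -0.32 (limma adjusted p = 0.26). All Remission pools lay above it too (0.44, 0.60 and 0.44), a Relapse minus Remission difference of -0.54 (adjusted p = 0.146). For Aqp4, both Relapse pools lay above the PBS mean (0.48 and 0.57) and all Remission pools below it (-0.16, -0.37 and -0.01), a Relapse minus Remission difference of 0.71 (adjusted p = 0.332). For Aqp1, Relapse pools lay 0.03 and 0.03 above the PBS mean and Onset pools at -0.06, -0.13 and 0.00, a Relapse minus Onset difference of 0.10 (adjusted p = 0.869). None of these 4 differences between phases passed the threshold of limma.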

How the results depend on the processing

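The count of genes called in Onset was 1 (Car3). It was 0 with the detection filter, which leaves Car3 untested (2.53% of the features kept were called), 2 with array weights (Car3 and Car4, 7.24% of all features), and 0 to 1 when a pool was left out. In Remission the count was 0, with 1 for the authors' values (Car4, 0.50, limma adjusted p = 0.0499) and 2 with array weights (Car3, -0.50, adjusted p = 0.0412, and Car4, 0.46, adjusted p = 0.0151). Array weights gave Car4 0.31 in Onset (adjusted p = 0.0248, against 0.0248 to 0.722 over all settings); they weighted PBS 1 most (3.82) and Onset 3 next (2.98). Small log2 fold changes turned sign. Median scaling gave Atp1b1 -0.05 in Onset and -0.0776 in Remission and Car12 0.007 in Relapse. Array weights gave Aqp1 0.0453 in Onset and 0.0319 in Remission, Atp1b1 -0.0135 in Remission and Car12 0.0305 in Relapse. Without both Onset 3 and Remission 3, Aqp1 in Remission was 0.0157. With 1 pool left out, Aqp4 ran from -0.139 to 0.123, Aqp1 from -0.121 to 0.011 and Car3 from -0.80 to -0.63 in Onset. Likewise Atp1b2 ran from -0.0944 to 0.0319, Aqp1 from -0.107 to 0.0616 and Atp1b1 from -0.0163 to 0.0415 in Remission, and Aqp1 from -0.0242 to 0.116 and Car12 from -0.0328 to 0.0381 in Relapse. Uncalled values also moved by over 1.5 times without turning sign when a pool was left out, among them Car2 in Onset (-0.17 to -0.0126), Aqp4 in Remission (-0.305 to -0.0739), Car4 in Relapse (-0.0975 to -0.0013) and Atp1b2 in Relapse (0.0622 to 0.259). With neqc, Car3 was -1.26 and Car4 0.478 in Onset, and Car4 was 0.84 in Remission. The cause of these changes was not tested. The replicate block gave 1 call in Onset (Car3) and 0 in the other comparisons, so that it changed no call of the 9 genes, Remission against Onset included. Of the log2 fold changes of the genes under all settings, 339 kept their sign and side of the threshold, 19 turned sign, 4 passed it and 4 no longer did. Leaving out a Relapse pool leaves 1, which is assumed to vary like the other groups. The beadchip block was not run, since no label used here gives the chip of a pool. Depth does not apply to arrays, and signals near background limit Car3 and Car4.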
